A study of Mus musculus with 8 samples.

Results

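Expression of the 3 NK2 homeobox genes known from heart and pharynx development, Nkx2-5, Nkx2-6 and Nkx2-3, was compared between Isl1-/- and wild-type mouse embryos. The genes were chosen by name, as 3 of the 20701 gene symbols measured, and each was represented by a single transcript entry. RNA had been sequenced from pharyngeal mesoderm and hearts of 4 Isl1-/- and 4 wild-type C57BL/6 embryos, given as E8.75 with 6 somites, with 1 embryo per library. The embryos came from a knockout line, so Isl1 was missing in all cells and not in one lineage, and the labels give neither group any other allele or treatment. Isl1, a LIM-homeodomain transcription factor of cardiac progenitors of the second heart field, was the gene removed, and the comparison addressed which genes of the forming heart depended on it.

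NK2 factors bind DNA through a homeodomain, and the founding member of the cardiac group is tinman, which flies need to make a heart. Nkx2-5 is switched on in the cardiac crescent in response to BMP signals and works with GATA and T-box factors on genes of heart muscle. Nkx2-6 is expressed in pharyngeal endoderm and at both poles of the early heart tube, and Nkx2-3 in pharyngeal endoderm and arches and later in gut and spleen mesenchyme, so a dissected piece of heart and pharynx holds several sources of these RNAs.

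In mm9, Nkx2-5 (NM_008700) lies on the minus strand of chromosome 17, from 26975609 to 26978510, Nkx2-6 (NM_010920) on the plus strand of chromosome 14, from 69789633 to 69793596, and Nkx2-3 (NM_008699) on the plus strand of chromosome 19, from 43686815 to 43690381. Each has 2 exons. Nkx2-6 overlaps 1 annotated gene, 1700092C10Rik, and since reads of both strands had been counted, reads of the overlapping part cannot be told apart. The other two genes overlap no annotated gene. RefSeq (GRCm38.p6) gave a start site for Nkx2-5 and Nkx2-3, and the 250 bases before it are shown, 5′ to 3′ on the strand of the gene, because the levels of both genes are compared below and these bases hold their proximal promoters. The Nkx2-5 window is chr17:26841566-26841815 and the Nkx2-3 window chr19:43612075-43612324 in that build, whose coordinates differ from those of mm9. Capitals mark matches to TAAT, the core bound by many homeodomains, on either strand.
Nkx2-5: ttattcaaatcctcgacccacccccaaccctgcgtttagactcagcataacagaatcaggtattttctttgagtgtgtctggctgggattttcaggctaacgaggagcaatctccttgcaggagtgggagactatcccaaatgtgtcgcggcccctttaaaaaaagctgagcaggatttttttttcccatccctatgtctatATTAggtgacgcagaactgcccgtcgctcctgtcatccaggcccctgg
Nkx2-3: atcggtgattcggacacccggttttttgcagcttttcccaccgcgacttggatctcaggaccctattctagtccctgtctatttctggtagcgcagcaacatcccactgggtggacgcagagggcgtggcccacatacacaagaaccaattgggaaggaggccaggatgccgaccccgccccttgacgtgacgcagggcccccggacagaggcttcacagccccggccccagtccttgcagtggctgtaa

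TAAT occurred once before Nkx2-5, on the opposite strand 48 to 45 bases before the start, and not before Nkx2-3, whereas 54.9% of all 32851 windows of this length hold it. The longer form CTAATG, the NK2 core AAGTG, its longer form TNAAGTG and the GATA core GATAA were searched on both strands too and matched neither window. They occur in 6.4%, 40.7%, 10.1% and 22.6% of all windows, and each longer form contains its core. A match is a description of letters, and the lack of one says only that these letters are not in these 250 bases. Of their bases, 49.2% were G or C before Nkx2-5 and 60.0% before Nkx2-3, against a median of 52.4% over all windows.

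Libraries held 18916452 to 26153039 counts. As a check of the labels, Isl1 was at 9.72 to 26.9 counts per 1000000 reads (CPM, scaled by TMM) in wild-type and 1.78 to 2.40 CPM in knockout embryos. Of 14075 genes tested, 122 (0.867%) were lower and 15 (0.107%) higher in the knockout at an edgeR false discovery rate (FDR) of 0.05, so that 89.1% of called genes were lower, or 79.0% with limma on RPKM. Wild-type embryo 3 stood apart: it had the lowest cardiomyocyte marker level of its group and the highest pharyngeal mesoderm and foregut endoderm marker levels. It also had the highest yolk sac endoderm markers of its group (4550 summed CPM) and the lowest primitive erythroid markers of the 8 embryos (360 summed CPM). Without it 490 genes were called, 78.4% of them lower. Results that rest on it are given both ways. The molecule was labelled polyA RNA in 7 libraries and total RNA in 1, that of knockout embryo 2.

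Nkx2-5 and Nkx2-6 fell in the knockout, and Nkx2-3 did not pass the test. Of the wild-type mean, 37.8% of Nkx2-5, 19.4% of Nkx2-6 and 57.9% of Nkx2-3 remained. Thus 2 of the 3 genes were called lower against 0.867% of all genes tested, and the same 2 had CPM values that did not overlap between genotypes, against 6.33% of all genes that lay lower without overlap.

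Nkx2-5, a standard marker of the cardiac lineage, had 25.5, 29.4, 24.0 and 22.5 CPM in the wild-type embryos (numbers 1 to 4 in order, as in the values below), from 612, 664, 569 and 593 reads. The knockout embryos had 10.9, 8.62, 10.6 and 8.22 CPM, from 281, 208, 203 and 168 reads. The lowest wild-type embryo was above the highest knockout embryo by more than the range within either group. Means were 25.4 ± 2.98 and 9.58 ± 1.35 CPM (SD, n = 4), which is -1.40 as a log2 fold change (SE 0.13, 95% confidence interval -1.69 to -1.11, edgeR FDR 0.00186). The exact two-sided permutation test of CPM gave p = 0.0286, the smallest value that 4 against 4 embryos can give. Spread within groups was small, with coefficients of variation of 11.7% and 14.1%, and leaving out wild-type embryo 3 gave -1.43.

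Nkx2-6, which marks pharyngeal endoderm and the poles of the heart tube, reached 4.26, 5.32, 10.2 and 8.14 CPM in the wild-type embryos (102, 120, 242 and 214 reads). The knockout embryos were at 1.59, 1.70, 1.31 and 0.832 CPM (41, 41, 25 and 17 reads). No knockout embryo reached the lowest wild-type embryo, and within the wild-type group embryos 3 and 4 were high and embryos 1 and 2 low, the same division as for Isl1 (26.9 and 23.3 against 9.72 and 9.76 CPM). Its means were 6.98 ± 2.70 and 1.36 ± 0.386 CPM (SD, n = 4), which is -2.35 as a log2 fold change (SE 0.32, 95% confidence interval -3.06 to -1.64, edgeR FDR 0.00727) and an exact two-sided permutation p of 0.0286. By size of decrease it ranked 10 of the 14075 genes, Nkx2-5 ranked 32 and Nkx2-3 ranked 230. Without wild-type embryo 3 its log2 fold change was -2.11 (edgeR FDR 0.00867).

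Nkx2-3, a gene of pharyngeal endoderm and arches at this age, gave 1.92, 3.10, 6.70 and 2.02 CPM in the wild-type embryos (46, 70, 159 and 53 reads). The knockout embryos gave 1.78, 2.53, 1.99 and 1.66 CPM (46, 61, 38 and 34 reads). The groups overlapped, and wild-type embryo 3 was more than 2 times as high as any other of the 8 embryos. Means were 3.43 ± 2.24 and 1.99 ± 0.383 CPM (SD, n = 4), a difference of -0.78 on the log2 scale (SE 0.39, 95% confidence interval -1.66 to 0.09, edgeR FDR 0.336, exact two-sided permutation p = 0.2). Without wild-type embryo 3 the wild-type mean was 2.35 ± 0.658 CPM and the log2 fold change -0.23 (edgeR FDR 0.599), so most of the difference in means came from that embryo. With Y-linked expression as a covariate, which was high in 1 wild-type and 3 knockout embryos, the log2 fold change of Nkx2-3 was -0.40, against -1.39 for Nkx2-5 and -2.34 for Nkx2-6.

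**Figure D1:**
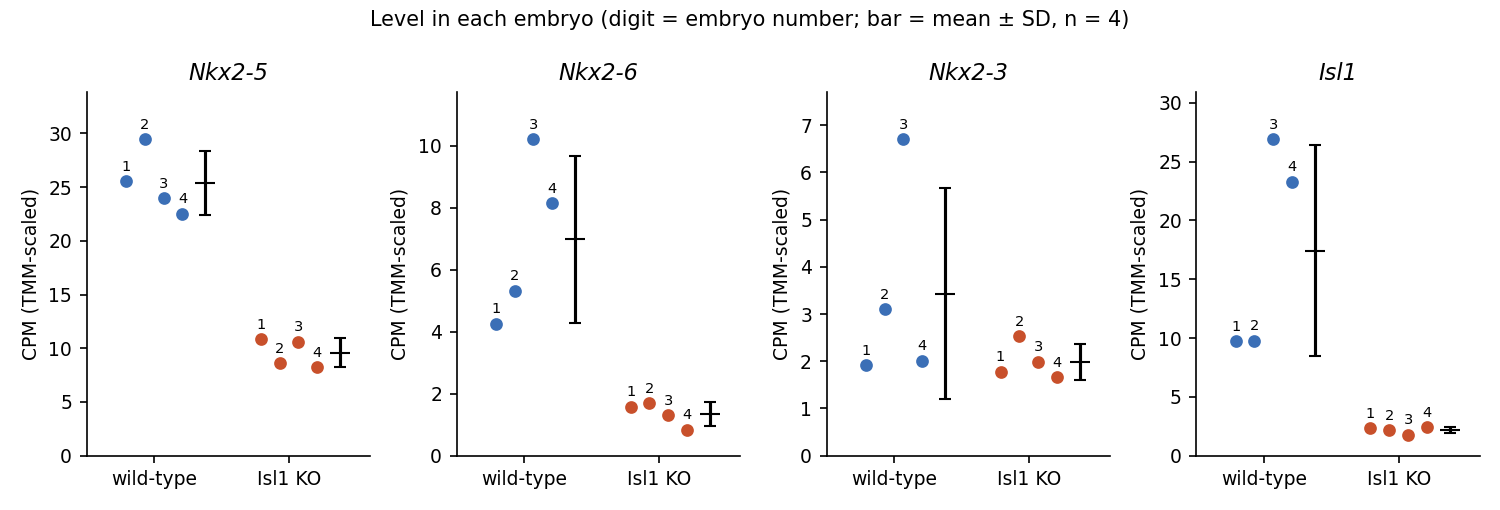
CPM of Nkx2-5, Nkx2-6, Nkx2-3 and Isl1 in each of 4 wild-type (blue) and 4 Isl1 knockout (red) embryos; digits are embryo numbers and black bars mean ± SD. Genotypes separate for Nkx2-5, Nkx2-6 and Isl1, while for Nkx2-3 wild-type embryos 1 and 4 lie among the knockout values, with embryos 2 and 3 above them at 3.10 and 6.70 CPM.

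Per length of transcript, Nkx2-5 was the most abundant of the 3 genes in every embryo. In the deposited RPKM values (reads per kilobase of transcript and 1000000 reads), the wild-type means were 9.68 ± 0.952 for Nkx2-5, 3.53 ± 1.41 for Nkx2-6 and 0.947 ± 0.623 for Nkx2-3 (SD, n = 4). Neighbours in this order did not overlap in the wild-type group, where Nkx2-6 ran from 2.12 to 5.17 RPKM and Nkx2-3 from 0.523 to 1.86 RPKM. In the knockout the means were 3.81 ± 0.554, 0.710 ± 0.199 and 0.569 ± 0.102 RPKM, and Nkx2-6, at 0.440 to 0.877, overlapped Nkx2-3, at 0.481 to 0.713. Summed over the 3 genes, the level was 12.3 to 16.3 RPKM in wild-type and 4.22 to 5.72 RPKM in knockout embryos. The length in the table for Nkx2-6 was 1152 bases, shorter than the 1381 exon bases of its annotated transcript in mm9, and the RPKM of this gene depends on that choice while its fold change does not.

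**Figure D2:**
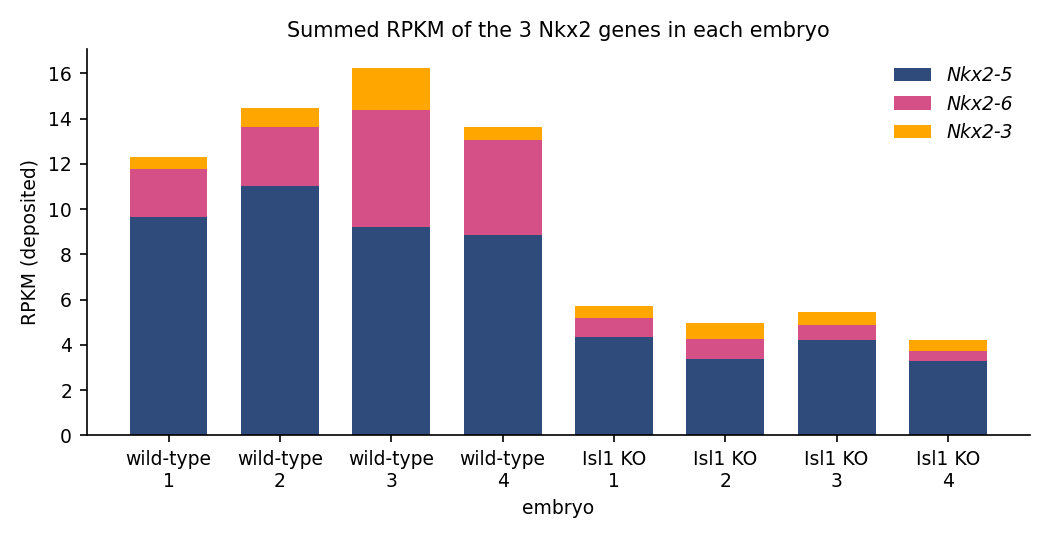
Deposited RPKM of Nkx2-5, Nkx2-6 and Nkx2-3 stacked for each embryo. Every knockout bar, at 5.72 RPKM or less, is below every wild-type bar, at 12.3 RPKM or more, and Nkx2-5 is the largest share of each.

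The share of Nkx2-6 in this sum was 17.3%, 18.1%, 31.8% and 30.9% across the wild-type embryos and 14.7%, 17.7%, 12.5% and 10.4% in the knockouts. Nkx2-3 took 4.25%, 5.78%, 11.4% and 4.18% in wild-type and 9.01%, 14.4%, 10.4% and 11.4% in knockout embryos. For Nkx2-5 the shares were 56.7% to 78.5% and 68.0% to 78.2%. Mean shares in wild-type and knockout were 24.5% and 13.8% for Nkx2-6 and 6.4% and 11.3% for Nkx2-3, and the genotypes overlapped for each gene. For Nkx2-3 the overlap came from wild-type embryo 3, since the other wild-type embryos, at 4.18% to 5.78%, lay below all knockout embryos, at 9.01% to 14.4%.

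Whether the genes changed by unequal amounts was tested with the log2 ratio of their counts within each embryo, in which library size cancels. Nkx2-6 over Nkx2-3 was 1.14, 0.773, 0.604 and 2.0 across the wild-type embryos and -0.164, -0.567, -0.594 and -0.979 in the knockouts. Every wild-type embryo thus had more Nkx2-6 than Nkx2-3 reads and every knockout embryo fewer. The difference was -1.71 (SE 0.35, exact two-sided permutation p = 0.0286). Adjusted by Benjamini-Hochberg over the 3 pairs, it did not pass (adjusted p = 0.0857). Without wild-type embryo 3 the difference was -1.88.

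Nkx2-6 over Nkx2-5 went from -1.94 ± 0.685 to -2.84 ± 0.398 (SD, n = 4), a difference of -0.90 (SE 0.40) that did not pass (exact permutation p = 0.0857, adjusted p = 0.114). Without wild-type embryo 3 this difference was -0.67 (exact permutation p = 0.143). In that ratio knockout embryo 2, at -2.33, lay above wild-type embryos 1 and 2, at -2.58 and -2.46. Nkx2-3 over Nkx2-5 went from -3.07 ± 0.843 to -2.26 ± 0.358, a difference of 0.80 (SE 0.46, exact permutation p = 0.114, adjusted p = 0.114), with wild-type embryo 3 at -1.84 among the knockout values of -2.60 to -1.76. Without that embryo this difference was 1.21 and the groups no longer overlapped (exact permutation p = 0.0286).

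**Figure D3:**
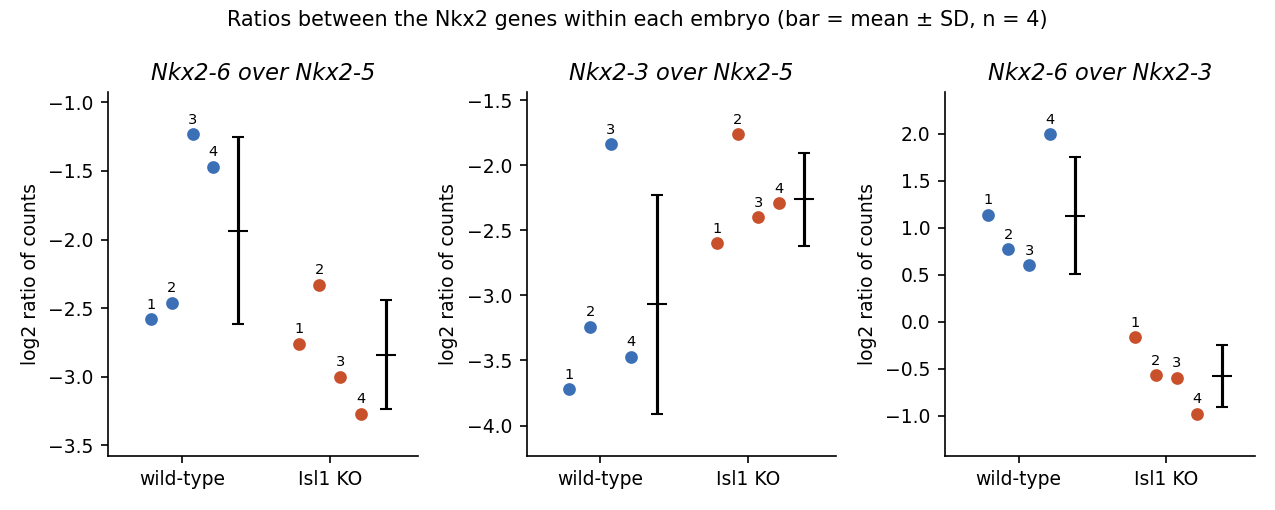
Log2 ratio of read counts between pairs of Nkx2 genes in each embryo, with mean ± SD in black. Nkx2-6 over Nkx2-3 is above 0 in the 4 wild-type and below 0 in the 4 knockout embryos, and the other two ratios overlap between genotypes.

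These genes have several cellular sources, so markers of the cell types in the dissection were measured beside them. In bulk RNA, fewer cells of a type and less RNA per cell cannot be told apart. Of 11 cardiomyocyte markers, 10 were lower in the knockout, against 0.867% of all genes tested, with a median log2 fold change of -1.01. DESeq2 called 11 of these markers and limma 7, against 709 and 119 of all genes. Their summed level was 2410 to 3400 CPM in wild-type and 1190 to 1890 CPM in knockout embryos. None of 8 foregut endoderm markers and none of 10 tested pharyngeal mesoderm markers passed the edgeR FDR of 0.05 in either direction. At an unadjusted p under 0.05, 0 and 2 of them did, and 0 with DESeq2 or limma. Their summed levels were 291 to 442 and 305 to 449 CPM for endoderm and 162 to 275 and 159 to 252 CPM for pharyngeal mesoderm, in wild-type and knockout. Among the pharyngeal mesoderm markers, the lowest edgeR FDR values went with opposite directions. They were those of Fgf10 (16.3 and 11.1 CPM, -0.55 log2, edgeR FDR 0.148) and Tbx1 (12.8 and 25.25 CPM, 0.98 log2, edgeR FDR 0.248). Yolk sac endoderm markers, from 412 to 6600 CPM, and primitive erythroid markers, from 360 to 3040 CPM, varied within both genotypes, and 0 of their 9 and 6 genes passed the edgeR FDR or an unadjusted p of 0.05, nor DESeq2 or limma. Of 7 endothelial and 8 neural markers 0 passed the edgeR FDR and 1 each an unadjusted p of 0.05, and DESeq2 called 1 neural gene, Hes5. No marker of these lists was at 0 in all embryos, and the part of tissue composition in the Nkx2 differences was not tested beyond the values that follow.

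Relative to cardiomyocyte markers (log2 CPM of the gene minus the mean log2 CPM of the list), Nkx2-5 was at -3.18, -2.93, -2.75 and -3.27 across the wild-type embryos and at -3.30, -3.30, -3.59 and -3.57 in the knockouts. Its difference was -0.41 (SE 0.14), compared with -1.40 for its level alone. The exact two-sided permutation p was 0.0286 (0.0429 adjusted over 6 values), but wild-type embryo 4 and knockout embryo 1 nearly met. Without wild-type embryo 3 the difference was -0.31 and did not pass (exact permutation p = 0.0857). Nor did the difference pass without any 1 of the knockout embryos (exact permutation p = 0.0571). The genotypes did not overlap in any of these subsets. With 3 embryos against 4, a split other than that by genotype can give as large a difference in means. Nkx2-6 on this scale was at -5.76, -5.39, -3.99 and -4.74 in wild-type and -6.06, -5.62, -6.59 and -6.84 in knockout embryos, a difference of -1.31 (SE 0.48, exact permutation p = 0.0571, adjusted p = 0.0686). Without wild-type embryo 3 this difference was -0.98 (exact permutation p = 0.0857). Nkx2-3 differed by 0.40 (SE 0.57, exact permutation p = 0.543), and by 0.90 without wild-type embryo 3 (exact permutation p = 0.0286, not adjusted). The cardiomyocyte marker level of that embryo, the lowest of its group, is itself part of this value.

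Relative to foregut endoderm markers, whose median log2 fold change was 0.09, all 3 genes were lower in the knockout without overlap. The most abundant of these markers were Epcam, Cdh1 and Cldn6, at wild-type means of 66.1, 111 and 121 CPM. Whether the list reflects foregut alone was not tested. Nkx2-6 differed by -2.42 (SE 0.32), with wild-type values of -2.25 to -1.23 and knockout values of -4.86 to -3.89. For Nkx2-5 the values were -0.536 to 0.336 and -1.70 to -1.12, a difference of -1.52 (SE 0.25). Nkx2-3 was at -3.39, -2.90, -2.37 and -3.23 across the wild-type embryos and -3.72, -3.46, -3.69 and -3.88 in the knockouts, so embryo 3 was less far from its group here than in CPM, and the difference was -0.71 (SE 0.24). Each of these had an exact two-sided permutation p of 0.0286 (0.0429 adjusted over 6 values). Without wild-type embryo 3 the difference of Nkx2-3 was -0.51 and did not pass (exact permutation p = 0.0571), nor did it without any 1 of the knockout embryos. That of Nkx2-5 did not pass without knockout embryo 2 or 4 (exact permutation p = 0.0571). The genotypes stayed without overlap in each of these subsets, where a split other than that by genotype gave as large a difference in means.

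**Figure D4:**
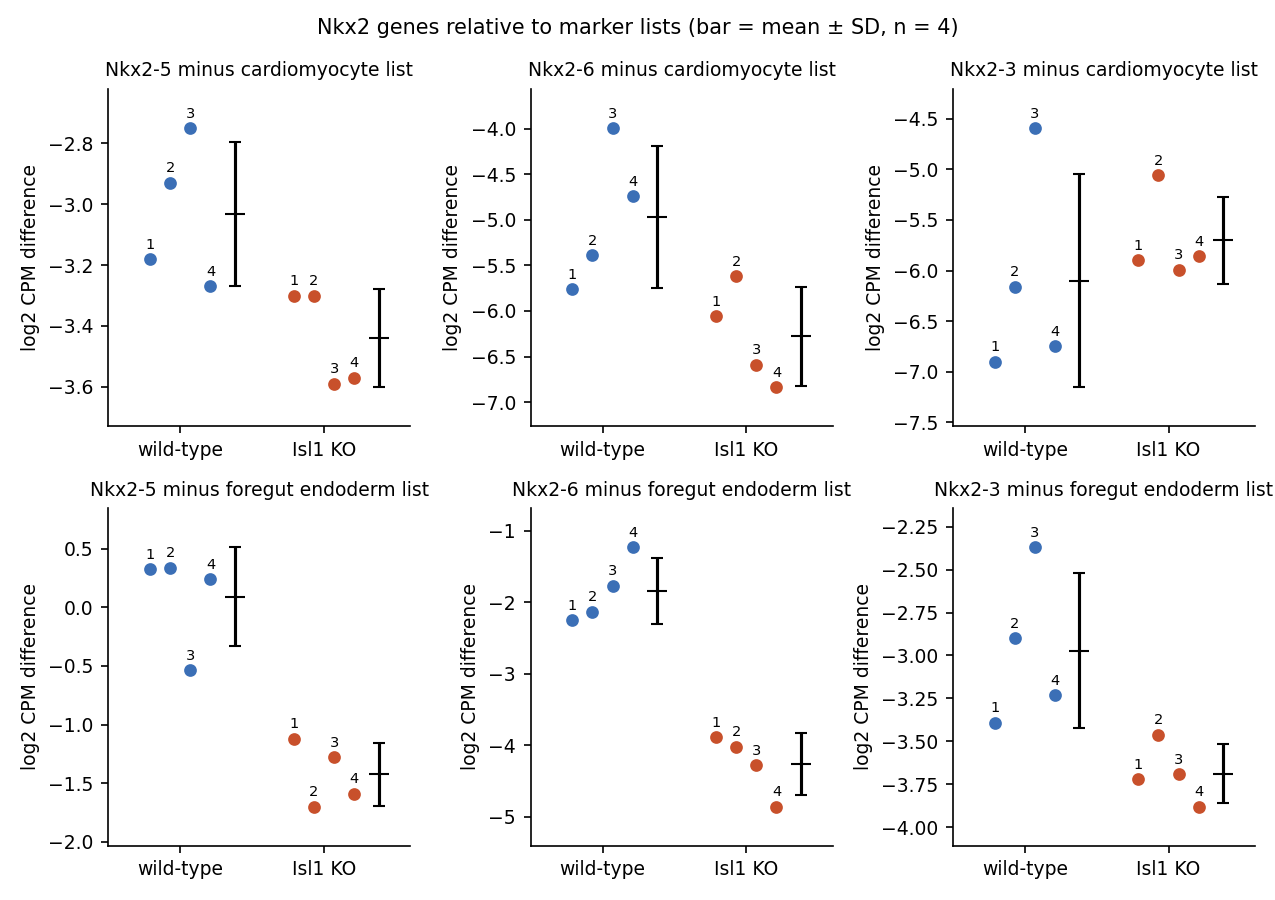
Log2 CPM of each Nkx2 gene minus the mean log2 CPM of 11 cardiomyocyte markers (top) or 8 foregut endoderm markers (bottom), per embryo, with mean ± SD in black; axes differ between panels. Against endoderm markers the genotypes separate for all 3 genes, with Nkx2-3 closest to overlap (-3.39 against -3.46).

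Other NK homeobox genes gave no call. Of 11 listed relatives 7 passed the filter on low counts, and 0 of them passed the edgeR FDR in either direction, an unadjusted p of 0.05, DESeq2 or limma. Their median log2 fold change was 0.03, against 0.01 over all genes. Over all genes tested, 0.867% were called lower and 0.107% higher. Nkx6-1 and Nkx6-2, factors of the neural tube, were at 6.92 ± 3.29 and 10.4 ± 1.78 CPM and at 7.03 ± 1.09 and 8.48 ± 0.462 CPM in wild-type and knockout (SD, n = 4). Nkx2-1, which specifies thyroid and lung, was at 1.67 ± 0.696 and 1.34 ± 0.787 CPM. Among these, the closest in sequence family to the cardiac genes are Nkx2-1, Nkx2-2 and Nkx2-9, whose log2 fold changes of -0.32, 0.03 and 0.52 had 95% confidence intervals that spanned 0. Nkx1-1, Nkx2-4, Nkx3-2 and Nkx6-3 were not tested, with 41 or fewer reads each over the 8 embryos.

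Transcription factors that act with Nkx2-5 on cardiac genes were lower in 6 of 13 cases and higher in 0, against 0.867% and 0.107% of all genes tested. Their median log2 fold change was -0.63. The gene lists were chosen with earlier results of these data known. Myocd, the muscle coactivator of SRF, fell from 34.7 ± 9.87 to 11.6 ± 1.78 CPM (SD, n = 4; -1.58 log2, SE 0.19, edgeR FDR 0.00447). Tbx5, a T-box partner of Nkx2-5 in atria and left ventricle, fell from 28.5 ± 3.17 to 12.7 ± 1.81 CPM (-1.17 log2, edgeR FDR 0.00304), and Tbx20 from 104.0 ± 6.81 to 47.6 ± 7.06 CPM (-1.13 log2). Among GATA zinc finger factors, Gata5 fell by 1.03 and Gata6 by 0.69 on the log2 scale, and Gata4 was at 98.7 ± 11.5 and 63.9 ± 11.1 CPM without passing (edgeR FDR 0.0532). The call of Gata5 was kept in all 15 alternatives and that of Gata6 lost in 8, among them leaving out any 1 knockout embryo (edgeR FDR 0.0628 to 0.0895). Mef2c fell by 0.73. Hand1, of the first heart field and extraembryonic mesoderm, was at 55.1 ± 28.2 and 54.5 ± 29.7 CPM, and Hand2, Srf, Tbx2, Tbx3 and Mef2a did not pass either. Srf, at edgeR FDR 0.0690, was lower without overlap between genotypes. At an unadjusted edgeR p under 0.05, 11 of the 13 factors passed, against 2453 of all 14075 genes. DESeq2 called 8 of the factors, against 709 of all genes, and limma 6, against 119. Over the 15 alternatives the count of lower factors ran from 5 to 8.

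BMP ligands, receptors and Smad transducers belong to the pathway that induces Nkx2-5. Of 11 such genes 2 were lower, Bmp5 (62.7 ± 5.21 to 46.6 ± 2.28 CPM, -0.43 log2, edgeR FDR 0.0372) and Bmp7 (51.5 ± 3.44 to 39.1 ± 1.67 CPM, -0.40 log2, edgeR FDR 0.0413), 0 were higher, and the median was -0.17. Over all genes tested, 0.867% were lower and 0.107% higher. The 2 calls were lost in most alternatives, whose counts ran from 0 to 3. Smad6, an inhibitory Smad that BMP signals induce, was at 20.2 ± 1.21 and 15.1 ± 0.898 CPM (edgeR FDR 0.0638). The receptor Bmpr1a was at 331.0 ± 21.2 and 321.0 ± 18.5 CPM and Smad4 at 158.0 ± 6.5 and 162.0 ± 11.1 CPM.

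Of 18 genes known to respond to Nkx2-5, 7 were lower and 0 higher, against 0.867% and 0.107% of all genes tested. Their median log2 fold change was -0.88. The list was not split by whether Nkx2-5 raises or lowers a gene, so its median has no expected sign. Hcn4, the pacemaker channel of the early heart tube, fell from 30.0 ± 3.94 to 12.3 ± 1.34 CPM (SD, n = 4; -1.29 log2, SE 0.12, edgeR FDR 0.00186). Slc8a1, the sodium-calcium exchanger, fell from 283.0 ± 27.3 to 125.0 ± 19.5 CPM (-1.18 log2, edgeR FDR 0.00212). Ankrd1, a cardiac ankyrin repeat protein, Sh3bgr, Popdc2 and Actc1, the cardiac actin, fell by 1.0, 0.98, 0.88 and 0.91 on the log2 scale, and Hopx by 0.58. Calls of Actc1 and Hopx, at edgeR FDR 0.048 and 0.0496, lay at the threshold and were lost in 10 and 12 of 15 alternatives, and that of Popdc2 in 5. Nppa and Nppb, the natriuretic peptide genes often used as readouts of Nkx2-5, were at 16.3 ± 8.89 and 7.04 ± 2.12 CPM and at 8.31 ± 4.54 and 3.89 ± 0.678 CPM, and their log2 fold changes of -1.21 and -1.10 did not pass (edgeR FDR 0.238 and 0.175). Id2, Gja1, Calr and Cited2, which are also expressed outside heart muscle, did not pass and differed by -0.37, -0.18, -0.26 and -0.07 on the log2 scale. Pdgfra, a mesenchymal receptor gene, was at 142.0 ± 19.7 and 164.0 ± 17.0 CPM. At an unadjusted edgeR p under 0.05, 16 of the 18 genes passed, against 2453 of all 14075 genes. With limma, 5 of the 18 targets were called. These counts stand beside the 10 of 11 cardiomyocyte markers that were lower (7 called with limma), and many of the partners and targets are known from heart muscle cells too.

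**Figure D5:**
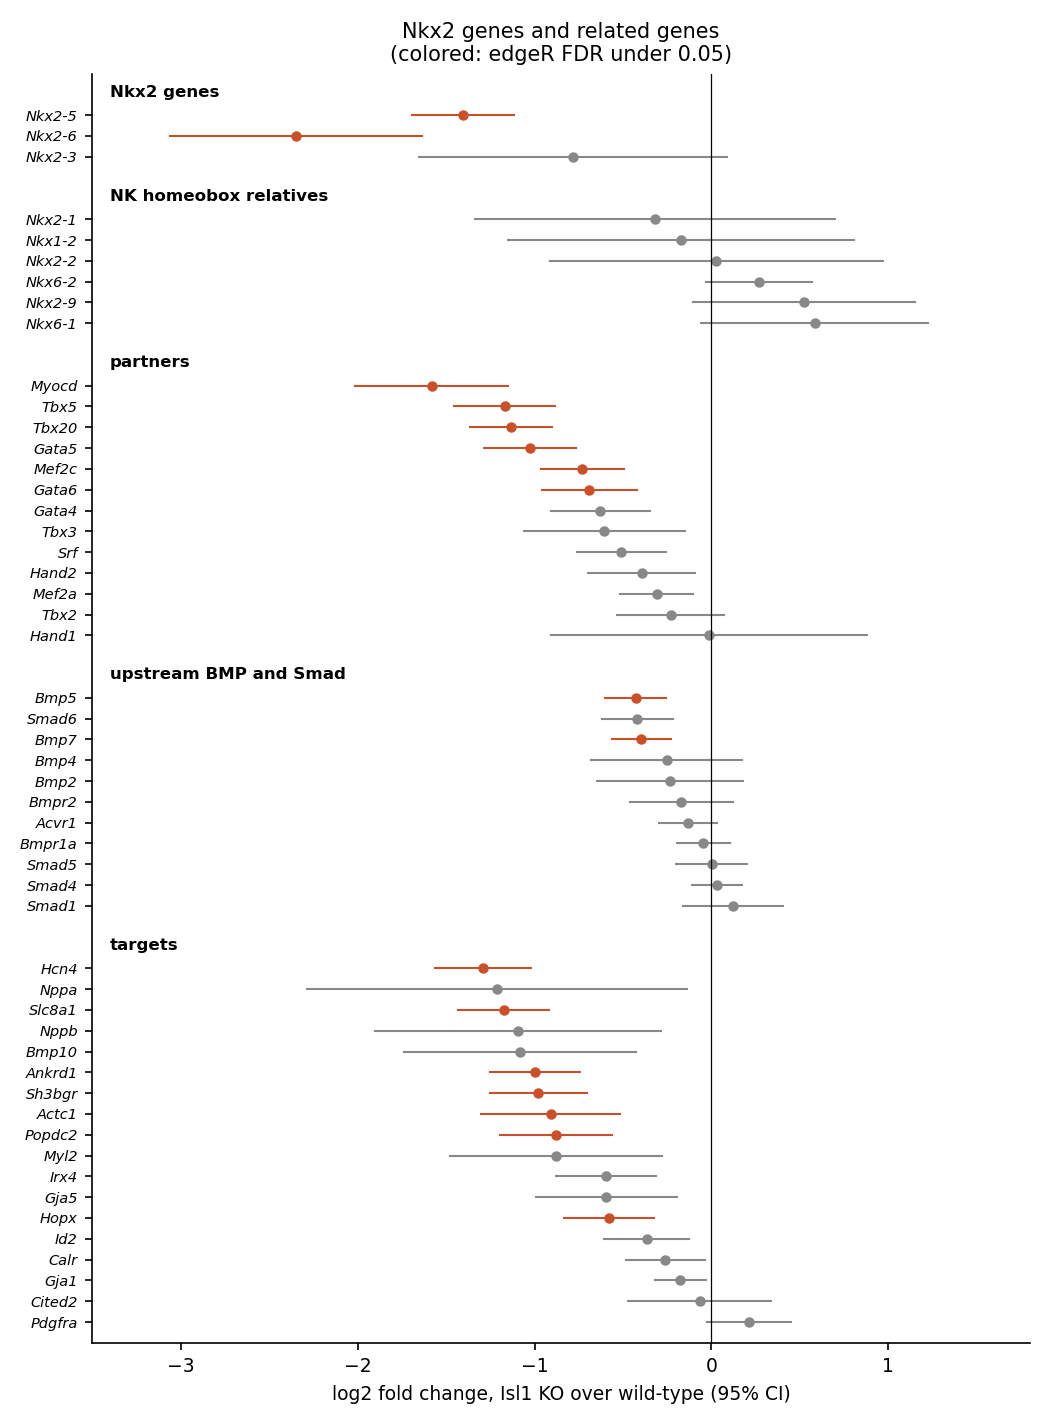
Log2 fold change of Isl1 knockout over wild-type with 95% confidence interval for the 3 Nkx2 genes and tested genes of 4 related lists; colored points passed an edgeR FDR of 0.05. Nkx2-6 at -2.35 lies lowest, partners and targets lie mostly below 0, NK relatives lie on both sides of 0 (median 0.03), and BMP and Smad genes lie mostly just below it (median -0.17).

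The genes most like each Nkx2 gene over the 8 embryos were found by Pearson correlation of log2 CPM among 11043 genes with a mean of at least 5 CPM. These values are descriptions over 8 points that share the libraries and, across genotypes, the genotype difference itself. For Nkx2-5 the nearest were Unc45b, a myosin chaperone, at 0.995, Smyd1, a muscle methyltransferase, at 0.993, and Polr2c, Hcn4 and Cnn1 at 0.990. Of these Polr2c, an RNA polymerase subunit, was not called (edgeR FDR 0.0660). Nearest to Nkx2-6 were Tdgf1, the Nodal coreceptor Cripto, at 0.995, Wdr46 at 0.981, Tomt at 0.965, Isl1 at 0.963 and Cpsf2 at 0.960. Tdgf1 fell from a mean of 9.77 to 2.49 CPM (-1.97 log2, edgeR FDR 0.00704). For Nkx2-3 they were Dgkk at 0.981, Abr, Frmd6, Aim1 and Gsr at 0.951 or more, and 0 of these 5 passed the edgeR FDR.

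With the genotype means taken out first, other genes came nearest. For Nkx2-5 these were Lrrc42, Poc1a, Ranbp17, Cercam and Mrpl2 (0.948 to 0.972), and no gene was in both of its lists of 5. Nkx2-6 kept Wdr46, beside Dhrs13, Mocs3, Taf1c and Gpaa1 (0.963 to 0.978). Nkx2-3 kept Dgkk and Gsr, beside Oxsm, Mapk3 and Apln (0.975 to 0.981), with wild-type embryo 3 as its highest point.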

How the data were processed

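RNA of single embryos (4 wild-type, 4 Isl1-/-) had been sequenced by the authors from 100 ng of total RNA, mapped to mm9 with STAR (introns of 20 to 500000 bases) and counted over exons of RefSeq transcripts, on both strands, with HOMER; versions are not given in the sources used here. The deposited counts are raw. The RPKM column of each embryo was computed by the authors in edgeR. The deposited log2 fold changes, the baseMean signal, the Wald score and the p-value columns are the authors' DESeq2 comparison and were not used.

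From the counts, the entry with the highest sum was kept per symbol. Counts were filtered with filterByExpr, scaled by TMM and fitted with edgeR 4.0.16 (quasi-likelihood, genotype, two-sided, Benjamini-Hochberg over 14075 genes) in R 4.3.3; the fit was checked on simulated data. Ratios and marker differences used counts plus 0.5 and exact two-sided permutation tests. Reads carried no molecular identifiers, and p-values measure the spread between embryos. Alternatives were DESeq2 1.42.0, limma 3.58.1 on log2(RPKM + 1), other scaling and filters, all transcript entries, a replicate block, Y-linked expression and leaving out each embryo. Replicate numbers did not pair embryos, so no block was used. Genes and lists were chosen with earlier results of these data known. Named were the Nkx2 genes, Isl1, called or most abundant genes of each list, and the 5 most correlated genes. Positions came from GENCODE vM1 (mm9) and start sites from RefSeq, which held an entry for 2 of the 3 genes. One gene of the NK list, part of its counts, is not reported here by name.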

Additional observations from a re-analysis of the deposited data

Results flagged for a closer look

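In groups of 4 embryos, a value was singled out where its gap to the nearest other embryo took most of the range of its group (Dixon's test at 95%). Of 40 groups checked 3 had such a value, and chance gives about 1 in 20. Relative to cardiomyocyte markers, Nkx2-3 was highest in knockout embryo 2, at -5.06, with the other 3 knockout embryos at -5.99 to -5.86. This is the embryo labelled as total RNA. Relative to foregut endoderm markers, Nkx2-5 was lowest among wild-type embryos in embryo 3, at -0.536, with the others at 0.24 to 0.336. That embryo had the highest foregut endoderm marker level of the 8, a mean log2 CPM of 5.12. The endothelial marker mean was lowest in knockout embryo 1, at 5.07 log2 CPM, with the other knockout embryos at 5.42 to 5.49. The causes were not tested.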

How the results depend on the processing

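The calls of Nkx2-5 and Nkx2-6, and the lack of one for Nkx2-3, were the same in all 15 alternatives, with log2 fold changes of -1.47 to -1.15, -2.53 to -1.36 and -0.98 to -0.23. The count of called genes, 137, became 709 with the DESeq2 Wald test (66.0% of them lower) and 70 to 490 when 1 embryo was left out, with 490 without wild-type embryo 3, 138 without knockout embryo 2 (76.1% lower) and 70 without knockout embryo 4. Across genes, embryos with the same number deviated together, with a correlation above 0.1, in 2 of 4 pairs (0.0972, 0.242, -0.0169 and 0.613), and embryos did not all correlate best with their own number, so the numbers were not taken as pairs. With the number as a replicate block, 76 genes were called, Nkx2-5, Nkx2-6 and Nkx2-3 had log2 fold changes of -1.41, -2.28 and -0.62, and the BMP and Smad list had 0 calls. Over the paired differences, the exact sign-flip permutation test cannot go below p = 0.125. The pair numbered 3 went against the other pairs in Nkx2-3 over Nkx2-5, and the pair numbered 2 in Nkx2-6 over Nkx2-5 (exact permutation p = 0.25 each).

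The 7 lower targets became 11 with DESeq2 and 4 to 12 when 1 embryo was left out (12 without wild-type embryo 3, 4 without wild-type embryos 1 or 2 or knockout embryos 1 or 4). The 2 lower BMP and Smad genes became 1 without the filter on low counts, 0 with Y-linked expression as a covariate, 0 with limma on RPKM and 0 to 2 when 1 embryo was left out. Relative to cardiomyocyte markers, Nkx2-5 gave -0.37 (exact permutation p = 0.0857) with the summed CPM of the list, and -0.49 to -0.31 when 1 embryo was left out, where it passed in 3 of 8 cases. Nkx2-6 gave -1.57 to -0.98 and passed without wild-type embryo 1, and Nkx2-3 gave 0.13 to 0.90 and passed without wild-type embryo 3. For these marker differences, passing with 1 embryo left out was judged on the unadjusted exact permutation p. Relative to foregut endoderm markers, Nkx2-3 gave -0.85 to -0.51 and passed in 3 of 8 cases, and Nkx2-5 gave -1.73 to -1.43 and passed in 6 of 8. The log2 ratio of Nkx2-3 to Nkx2-5 gave 0.59 to 1.21. Fewer embryos leave fewer possible splits, and in unequal groups another split can give as large a difference in means. Nkx2-5 relative to either list and Nkx2-3 relative to foregut endoderm markers did not overlap between genotypes with any 1 embryo left out. Other causes were not tested. Depth limits Nkx2-6 and Nkx2-3, with 17 to 242 and 34 to 159 reads per embryo.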
